A study of Mus musculus with 238 samples.

Results

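Visual cortex of aged male mice given plasma of young mice was compared with visual cortex of males of the same age given saline, across all genes of a bulk RNA sequencing count table. The comparison rests on 6 libraries, 1 per mouse, of 98 in the plasma experiment and 238 in the series. They were chosen by their labels alone: tissue visual cortex and experiment group plasma injection. All 6 mice were C57BL/6JN males of 19 months. The 3 mice 73, 77 and 81 received young mouse plasma (YMP) and the 3 mice 76, 80 and 84 received phosphate-buffered saline (PBS), both by retro-orbital injection, that is, into the venous sinus behind the eye. One more PBS mouse, number 72, gave other regions and no visual cortex library here. The labels give no plasma dose, no number of injections, no interval between the last injection and sampling, no hour of sampling and no litter or sequencing batch. A separate experiment of the series fed or restricted females, and 9 of its visual cortex libraries (4 AL, fed freely, and 5 aDR, dietary restricted) are used below only as a reference for layer markers.

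The visual cortex is the neocortical area that receives retinal signals by way of the thalamus. Thalamic axons end mainly in layer 4, and light-driven firing switches on immediate early genes such as Fos and Arc in its neurons. Plasma given into a vein meets the vessel wall first: endothelial cells carry the blood-brain barrier, and pericytes and smooth muscle cells wrap the vessels from outside. Plasma of young donors is studied in aged rodents because circulating proteins differ with age, and several of the proteins named in that field act through receptors on vessel cells, neurons or glia.

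The libraries held between 6503414 and 12297939 counts, and mitochondrial genes took 1.70% to 2.02% of them. Values of single genes are given as CPM, the standard unit of counts relative to library size, with library sizes scaled to each other unless stated. Xist, expressed from the inactive X of females, was at most 1.22 CPM of the unscaled library total, and the Y-linked gene Ddx3y was between 72.4 and 79.95 CPM on the same scale, as the label male requires. The 10 markers of cortical projection neurons averaged 7.36 to 7.57 on the log2 CPM scale in the 6 libraries. Choroid plexus was near absent, with 0 to 6 counts of its defining gene Ttr in a library.

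PBS mouse 76 stood apart from the other visual cortex libraries in the markers of cortical layers. The mean log2 CPM of the 8 layer 4 genes was 3.58 in this library. It was 4.70 and 4.81 in PBS mice 80 and 84, between 4.46 and 4.64 in the YMP mice, and between 4.41 and 4.64 in the 9 visual cortex libraries of the diet experiment. In the 7 motor cortex libraries of the plasma experiment, an area with a thin layer 4, the list lay between 2.86 and 3.88. Mouse 76 was thus below every other visual cortex library and inside the motor cortex range for this list. Its layer 6 mean, 3.09, was also inside the motor cortex range. Its layer 5 mean, 5.68, was instead above the highest motor cortex library (5.46, PBS mouse 80). Its mean of the upper layer genes, 5.82, was above the highest motor cortex library too (5.77, YMP mouse 73).

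Rorb, the transcription factor of layer 4 neurons, was at 179, 175 and 171 CPM in YMP mice 73, 77 and 81 and at 56.6, 182 and 195 CPM in PBS mice 76, 80 and 84. Tshz2, expressed in a set of deep-layer neurons, was at 19.0, 17.0 and 22.3 CPM in the YMP mice and at 128, 17.6 and 18.7 CPM in the PBS mice. Mouse 76 alone was low for the first gene and high for the second. The log2 difference of Tshz2, YMP minus PBS, was -1.45 with all mice and 0.10 without mouse 76, so this gene is not read as a difference between treatments. The 10 layer 5 genes averaged 5.68 in mouse 76 and 5.00 to 5.22 in the other 5 libraries. Many of the list counts below are therefore given both with all mice and without this library.

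**Figure D1:**
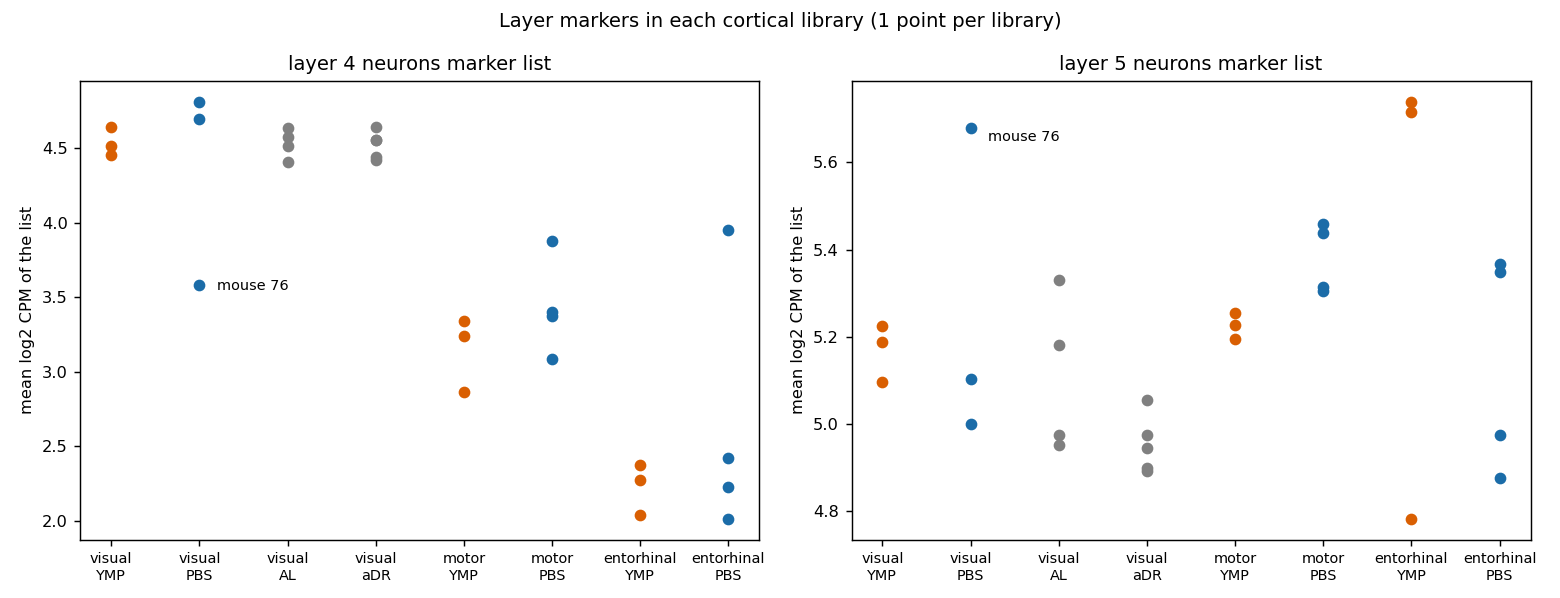
Mean log2 CPM of the layer 4 list (left) and the layer 5 list (right), 1 point per library, for visual cortex of both experiments and for motor and entorhinal cortex of the plasma experiment (orange YMP, blue PBS, grey diet groups). The visual cortex library of PBS mouse 76 lies at 3.58 on the layer 4 axis, below the other 14 visual cortex libraries, and at 5.68 on the layer 5 axis, above them.

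Young plasma and saline were then compared gene by gene. Of 13551 genes tested, 0 were called by the quasi-likelihood test of edgeR at an adjusted p (Benjamini-Hochberg) under 0.05, and the smallest adjusted p was 0.999. DESeq2 and limma voom also called 0. An unadjusted p under 0.05 was reached by 377 genes, 2.78% of those tested, 174 of them higher (1.28%) and 203 lower (1.5%) in YMP mice. The groups did not overlap in 1025 genes (7.56%): the 3 YMP values lay wholly above the 3 PBS values in 503 genes (3.71%) and wholly below them in 522 (3.85%). The median log2 difference over all genes was 0.0015 and the median standard error 0.13, so that the 95% interval of a typical gene reached 0.28 to either side. A difference inside that interval was not detectable with 3 mice a group. The interval is of a single gene before adjustment, and far larger differences were also not called after it. Myh11, with the smallest p, had a log2 difference of -1.39 (SE 0.25) and an edgeR adjusted p of 0.999. A rank or permutation test of a single gene cannot go below an exact two-sided p of 0.1 at this size. With no difference between treatments, a share of about 0.1 of genes would be apart, and about 0.05 would reach an unadjusted p under 0.05. The observed shares, 7.56% and 2.78%, were below these, and the lists below are set beside the observed shares. With fewer mice a lack of overlap is more common. Without PBS mouse 76 the groups were apart in 7.89% of all genes (YMP higher) and 8.48% (YMP lower), and without YMP mouse 73 in 8.55% and 9.15%. The differences within visual cortex described below are of genes that did not pass the adjusted threshold.

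The lowest p of the whole comparison belonged to a gene of the vessel wall. Myh11, the myosin heavy chain of smooth muscle (GRCm38, chromosome 16, 14194527 to 14292188), was at 2.71, 1.73 and 1.61 CPM in YMP mice 73, 77 and 81 and at 6.03, 4.78 and 4.82 CPM in PBS mice 76, 80 and 84. Every YMP mouse was below every PBS mouse, with a gap of over 2 CPM between the groups. The means were 2.02 ± 0.602 and 5.21 ± 0.708 CPM (SD, n = 3 each), a log2 difference of -1.39 with a standard error of 0.25. The edgeR p was 1.74e-04 before and 0.999 after adjustment, and the log2 difference ran from -1.63 to -1.24 when mice were left out 1 at a time.

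Acta2, smooth muscle actin (chromosome 19, 34240336 to 34255585), was at 5.05, 4.04 and 6.86 CPM in the YMP mice and at 19.0, 9.92 and 10.7 CPM in the PBS mice. The groups did not overlap, and PBS mouse 76 was the highest library. The log2 difference was -1.27 (SE 0.27) with all mice and -0.95 without mouse 76. Tagln, another contractile gene, was at 2.46, 1.44 and 2.34 CPM in the YMP mice and at 4.79, 2.63 and 2.84 CPM in the PBS mice, again without overlap (log2 difference -0.68, SE 0.31). These 3 genes are low in cortical tissue, with 18 to 22 counts of Myh11 in each YMP library.

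The list of pericyte and smooth muscle markers held 12 genes, of which 11 had enough counts to be tested. The mean was lower in YMP mice in 9 of them, and an unadjusted p under 0.05 was reached by 5, all lower, against 1.5% of all genes. Without overlap of the groups, 6 were lower (Myh11, Acta2, Tagln, Notch3, Pdgfrb and Vtn) and 0 higher, against 3.85% and 3.71% of all genes. Their median log2 difference was -0.34, and the summed level of the list was 121 to 135 CPM in YMP and 147 to 162 CPM in PBS mice. Genes used as pericyte markers were spread. Anpep, an aminopeptidase of pericytes, differed by -0.63 (SE 0.26) and Abcc9, a subunit of their potassium channel, by -0.40 (SE 0.25), both with overlap. Pdgfrb, the receptor that holds pericytes to the vessel, was at 15.6, 16.7 and 17.4 CPM in YMP and at 20.4, 21.98 and 18.9 CPM in PBS mice (log2 difference -0.29, SE 0.12), without overlap. Rgs5 and Kcnj8, both pericyte genes, overlapped between the groups and had log2 differences of 0.02 (SE 0.15) and 0.08 (SE 0.20). Without PBS mouse 76, 9 of 11 genes were lower with a median of -0.31, and 7 were lower without overlap (8.48% of all genes). In that fit 3 in place of 5 were lower with an unadjusted p under 0.05 (2.27% of all genes). Without YMP mouse 73 there were also 3 (1.83% of all genes). In bulk tissue, fewer cells of a type and less RNA per cell cannot be told apart.

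Markers of meningeal fibroblasts, the cells of the membranes on the brain surface, were lower in the same libraries. All 14 genes of the list were tested and 14 had a lower mean in YMP mice, with a median log2 difference of -0.33. The groups did not overlap in 6 of them, against 3.85% of all genes. The number was 9 without PBS mouse 76 (8.48% of all genes) and 12 without YMP mouse 73 (9.15% of all genes). Ogn, which encodes the matrix protein osteoglycin, was at 13.1, 12.1 and 15.2 CPM in YMP and at 19.8, 17.8 and 18.7 CPM in PBS mice (log2 difference -0.47, SE 0.13). Col1a1, the main chain of type I collagen, was at 16.6, 12.7 and 14.8 CPM against 21.6, 18.4 and 20.2 CPM (log2 difference -0.45, SE 0.14). Dcn, decorin, and Aldh1a2, a retinoic acid synthesising enzyme of the meninges, differed by -0.43 (SE 0.15) and -0.37 (SE 0.15), and Foxc1, a transcription factor of the same cells, by -0.02 (SE 0.18). The summed level of the list was 1686 to 2497 CPM in YMP and 2401 to 2616 CPM in PBS mice, most of it Ptgds, the prostaglandin D synthase. How much meningeal tissue came with each sample is not in the labels, and its part in the lower smooth muscle genes was not tested.

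Endothelial genes also had more lower than higher members. Of 22 genes of endothelium and barrier, 17 had a lower mean in YMP mice, and the median log2 difference was -0.14. The groups did not overlap in 5 lower and 0 higher genes, against 3.85% and 3.71% of all genes. Without PBS mouse 76 the median was -0.24 and 7 genes were lower without overlap (8.48% of all genes), and without YMP mouse 73 there were 8 (9.15% of all genes). Tie1, an endothelial receptor kinase, was at 8.38, 5.87 and 6.29 CPM in YMP and at 12.7, 11.4 and 8.89 CPM in PBS mice (log2 difference -0.68, SE 0.19). Flt1, a receptor for the growth factor VEGF, was at 44.8, 45.7 and 51.7 CPM against 60.3, 58.8 and 56.2 CPM (log2 difference -0.30, SE 0.10). Tek and Vwf differed by -0.35 (SE 0.13) and -0.54 (SE 0.23) without overlap. Lrp1, the most abundant gene of the list, overlapped (-0.06, SE 0.09).

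Transporters of the barrier had differences within or near their standard errors. Slc2a1, the glucose transporter, overlapped between the groups (log2 difference 0.15, SE 0.12), as did Mfsd2a, which carries lipids across the barrier (0.17, SE 0.17), and the efflux pumps Abcg2 (0.10, SE 0.10) and Abcb1a (-0.05, SE 0.17). Vcam1, the adhesion molecule studied in aged brain endothelium, was at 36.1, 36.3 and 29.6 CPM in YMP and at 37.1, 36.6 and 37.8 CPM in PBS mice. The groups were apart, but by under 1 CPM at their nearest values (log2 difference -0.13, SE 0.11). Cav1, the coat protein of caveolae that is abundant in endothelium, was among the genes with the lowest p, at 16.8, 19.0 and 16.5 CPM against 23.8, 21.7 and 25.5 CPM (log2 difference -0.45, SE 0.12).

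The other lower genes with the smallest p were of mixed kind. Myoc, which encodes the secreted protein myocilin, was at 27.8, 22.5 and 32.0 CPM in YMP and at 39.1, 46.8 and 43.7 CPM in PBS mice (log2 difference -0.65, SE 0.14). Serping1, the inhibitor of complement C1, was at 15.4, 10.7 and 12.3 CPM against 18.2, 19.7 and 18.1 CPM (log2 difference -0.56, SE 0.15). Tceanc, Cyp2e1, mt-Co3, Pgm5, Sncg and Cd209a completed the 12 lower genes named by the smallest p. Their log2 differences lay between -1.58 (Sncg, SE 0.44) and -0.60 (mt-Co3, SE 0.16). Cyp2e1, Pgm5 and Sncg averaged under 3 CPM in both groups. Cd209a, a lectin of antigen-presenting cells, was at 3.20, 2.31 and 3.15 CPM in YMP and at 4.64, 5.14 and 4.82 CPM in PBS mice.

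**Figure D2:**
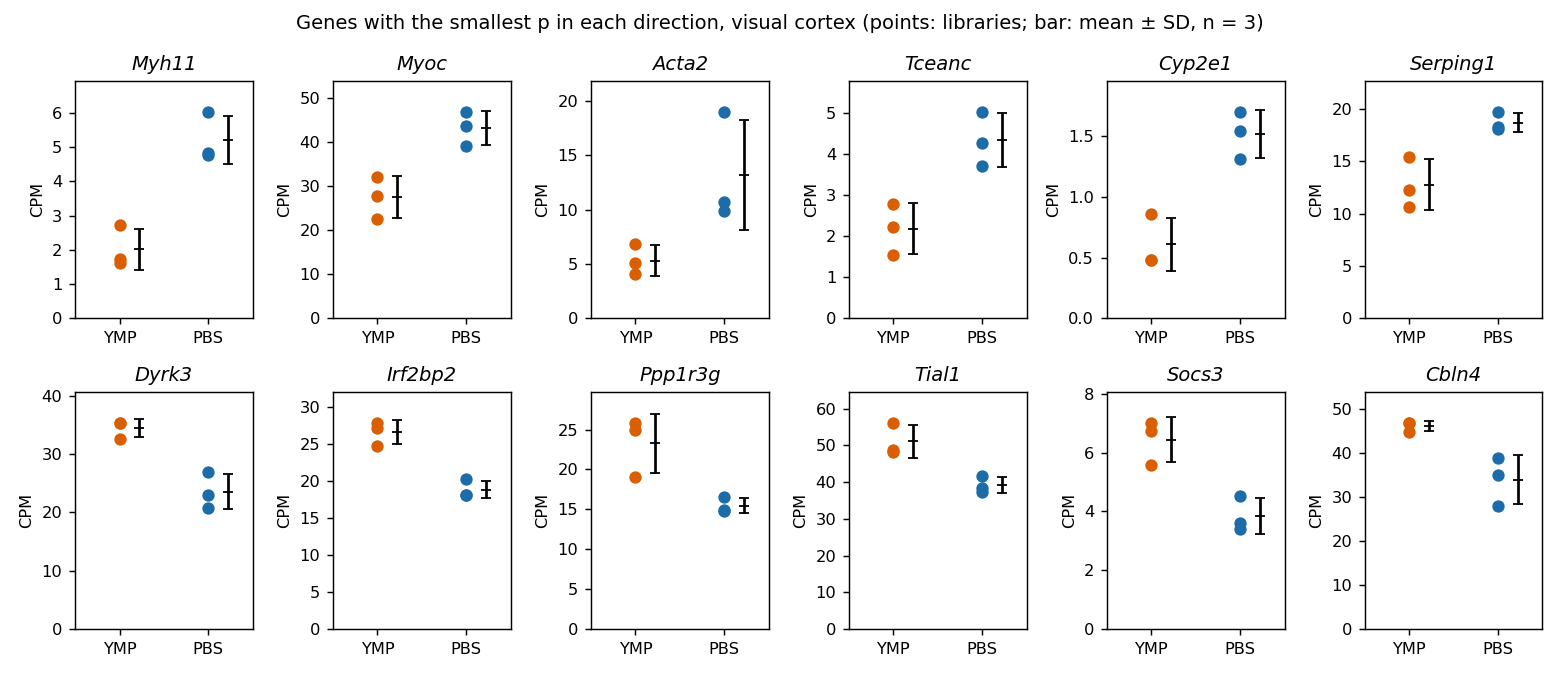
CPM of the 6 lower (top) and 6 higher (bottom) genes with the smallest p, with 1 point per library and the mean ± SD of 3 mice beside them. In each panel the orange YMP points and the blue PBS points do not overlap, and the axes start at 0. Myh11 averages 2.02 and 5.21 CPM, and Dyrk3 34.4 and 23.6 CPM.

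Among genes higher in YMP mice, Dyrk3 had the smallest p. This kinase, which dissolves condensates such as stress granules (chromosome 1, 131128441 to 131138234), was at 32.6, 35.4 and 35.2 CPM in YMP mice 73, 77 and 81 and at 23.0, 20.8 and 26.9 CPM in PBS mice 76, 80 and 84. The YMP values lay close together and above all PBS values (log2 difference 0.54, SE 0.12, edgeR adjusted p 0.999). Irf2bp2, a transcriptional corepressor, was at 24.8, 27.2 and 27.9 CPM against 20.2, 18.2 and 18.2 CPM (log2 difference 0.51, SE 0.11).

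Socs3, an inhibitor of cytokine signalling that acts on the JAK-STAT pathway, was at 7.02, 6.73 and 5.57 CPM in YMP and at 3.40, 4.54 and 3.59 CPM in PBS mice, without overlap (log2 difference 0.73, SE 0.20). Ppp1r3g and Ppp1r3c, both subunits that bring protein phosphatase 1 to glycogen, were higher with log2 differences of 0.58 (SE 0.14) and 0.31 (SE 0.09). Ppp1r3c was at 54.1, 56.5 and 55.7 CPM in YMP and at 41.3, 47.3 and 45.8 CPM in PBS mice. Qk, an RNA-binding protein of glia, was at 239, 275 and 246 CPM against 215, 213 and 190 CPM (log2 difference 0.30, SE 0.09). Tet3, an enzyme that oxidises methylated cytosine, was at 56.0, 65.6 and 55.6 CPM against 45.3, 40.9 and 50.7 CPM (log2 difference 0.37, SE 0.11). The other genes of this set were the RNA-binding protein Tial1, the synaptic organiser Cbln4, the noncoding RNA Rian, the channel family member Tmc7 and Rnd1, with log2 differences between 0.29 (Rnd1, SE 0.09) and 0.60 (Tmc7, SE 0.18).

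Targets of glucocorticoid hormone, released under stress and over the day, held more genes with a higher YMP level and no overlap than the other pathway lists. Of 20 genes, 19 were tested, 12 had a higher mean in YMP mice and 7 had an unadjusted edgeR p under 0.05, all 7 higher, against 1.28% of all genes. The groups were apart in 4 genes (Klf9, Pdk4, Fam107a and Map3k6), all higher, against 3.71% of all genes. The median log2 difference was 0.19.

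Sgk1, a kinase induced by the hormone, was at 106, 200 and 164 CPM in YMP and at 116, 97.7 and 108 CPM in PBS mice (log2 difference 0.55, SE 0.18). Errfi1, an inhibitor of the EGF receptor, was at 48.2, 77.1 and 60.2 CPM against 50.4, 38.7 and 39.7 CPM (log2 difference 0.54, SE 0.16). Mice 77 and 81 were high for both genes, while YMP mouse 73 lay within the PBS range. Klf9, a transcription factor, was at 274, 298 and 284 CPM in YMP and at 236, 226 and 264 CPM in PBS mice (log2 difference 0.24, SE 0.09), and here mouse 73 was above the PBS mice too. Pdk4, a brake on glucose oxidation, and Fam107a, an actin-binding protein, did not overlap either, with differences of 0.48 (SE 0.19) and 0.42 (SE 0.18). Ddit4 and Tsc22d3 differed by 0.64 (SE 0.25) and 0.28 (SE 0.11) with overlap.

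The receptor genes Nr3c1 and Nr3c2 (log2 differences -0.06, SE 0.09, and -0.07, SE 0.15) and the metallothionein Mt1 (-0.01, SE 0.14) showed no such difference, and Fkbp5, a widely used target, differed by 0.19 (SE 0.13). The hour of sampling is not in the labels, and its part in these genes was not tested. The list of the circadian clock had a median of 0.01, with 12 of 19 genes higher. Its member with the smallest p, Nfil3, differed by 0.41 (SE 0.17), and Tef, the most abundant, by -0.04 (SE 0.09). The clock list had 8 of 19 genes higher without PBS mouse 76. The glucocorticoid list then had 13 of 19 genes higher, 6 of them without overlap (7.89% of all genes), and 1 lower without overlap (8.48% of all genes). Without YMP mouse 73, 16 of the 19 glucocorticoid genes were higher, and 10 of them without overlap (8.55% of all genes).

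Heat shock and unfolded protein genes had a higher mean in YMP mice in 19 of 20 tested, with a median log2 difference of 0.11 and overlap of the groups in all 20. Without PBS mouse 76, 17 of 20 were higher, 6 of them without overlap (7.89% of all genes), and the median was 0.13. In that fit 2 were higher with an unadjusted p under 0.05 (1.53% of all genes). Hspa8, the most abundant chaperone of the list, was at 3087, 2957 and 2485 CPM in YMP and at 3173, 2589 and 2418 CPM in PBS mice (log2 difference 0.06, SE 0.12). Sdf2l1, a cofactor of folding in the endoplasmic reticulum, differed by 0.30 (SE 0.16), the smallest p of the list. Calr, calreticulin, was the 1 gene with a lower mean (-0.16, SE 0.09).

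Immediate early genes, which neurons switch on within minutes of firing, differed more between mice than between treatments. Fos was at 224, 178 and 61.8 CPM in YMP mice 73, 77 and 81 and at 130, 45.0 and 142 CPM in PBS mice 76, 80 and 84. Arc, whose protein acts at synapses, was at 1493, 1636 and 703 CPM against 919, 255 and 1003 CPM (log2 difference 0.81, SE 0.42), the smallest p of the list. In both genes YMP mouse 81 and PBS mouse 80 were the lowest libraries. The same pair was lowest in 17 of the 20 genes, and the highest library was YMP mouse 73 in 11, PBS mouse 84 in 6 and YMP mouse 77 in 3. The highest library exceeded the lowest by a median ratio of 3.13 over the 20 genes. The groups overlapped in all 20, the median log2 difference was 0.32 with 15 genes higher, and it was 0.08 without YMP mouse 73, 0.11 without PBS mouse 80 and 0.52 without YMP mouse 81. Egr1 was at 1436, 1522 and 807 CPM against 964, 864 and 1111 CPM (log2 difference 0.36, SE 0.20), while Npas4 had a lower mean (-0.52, SE 0.37; 0.030 without PBS mouse 84).

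As background, firing reaches immediate early genes in part through CREB, a factor that binds the cAMP response element TGACGTCA or its half-site TGACG. The promoters of 3 of these genes are shown as examples. Each is the 250 bases before a transcript start (RefSeq, GRCm38.p6), 5′ to 3′ on the strand of the gene, with TGACG or its reverse complement CGTCA in capitals. The windows are chr12:85473640-85473889 (plus strand) for Fos, chr15:101266596-101266845 (plus strand) for Nr4a1 and chr17:26508473-26508722 (minus strand) for Dusp1. The Fos and Dusp1 windows end at the edge of the gene, whereas that of Nr4a1 belongs to a start inside the annotated gene, which spans 101253902 to 101274795.
Fos: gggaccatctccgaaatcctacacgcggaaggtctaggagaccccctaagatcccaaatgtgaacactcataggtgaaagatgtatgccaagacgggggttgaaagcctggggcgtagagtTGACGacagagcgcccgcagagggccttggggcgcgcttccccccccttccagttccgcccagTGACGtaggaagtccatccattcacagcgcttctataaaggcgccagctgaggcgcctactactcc
Nr4a1: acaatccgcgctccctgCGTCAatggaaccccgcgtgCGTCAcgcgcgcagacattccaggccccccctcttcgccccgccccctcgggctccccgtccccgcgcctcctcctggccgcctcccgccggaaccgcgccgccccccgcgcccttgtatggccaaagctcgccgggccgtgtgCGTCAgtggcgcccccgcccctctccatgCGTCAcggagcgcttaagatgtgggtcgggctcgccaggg
Dusp1: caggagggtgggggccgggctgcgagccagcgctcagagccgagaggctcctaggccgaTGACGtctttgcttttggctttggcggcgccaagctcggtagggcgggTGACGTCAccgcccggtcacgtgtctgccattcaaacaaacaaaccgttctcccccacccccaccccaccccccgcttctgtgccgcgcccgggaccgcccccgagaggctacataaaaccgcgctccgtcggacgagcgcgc

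The half-site occurred 2 times in the Fos window, 4 times in that of Nr4a1 and 3 times in that of Dusp1, where 2 of the matches overlap as the full element TGACGTCA. Of the 20 immediate early genes, 15 had a window in the RefSeq table, and 13 of them (86.7%) held TGACG on either strand in at least 1 window. The half-site was found in 19.8% of all 27025 genes with a window. The full element was found in 2 of the 15, Dusp1 and Btg2, and in 1.77% of all genes. Genes with several annotated starts have several windows and thus more chances of a match. Jun and Dusp6 had a window without the half-site. A match describes these letters and does not show that CREB was bound. The part of CREB in the differences between mice was not tested. Nr4a1, an orphan nuclear receptor, was at 548, 434 and 186 CPM in YMP and at 261, 88.9 and 375 CPM in PBS mice, and Dusp1, a phosphatase of MAP kinases, at 384, 308 and 123 CPM against 241, 63.0 and 299 CPM. Both followed the order of Fos at their lower end, with YMP mouse 81 and PBS mouse 80 lowest.

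**Figure D3:**
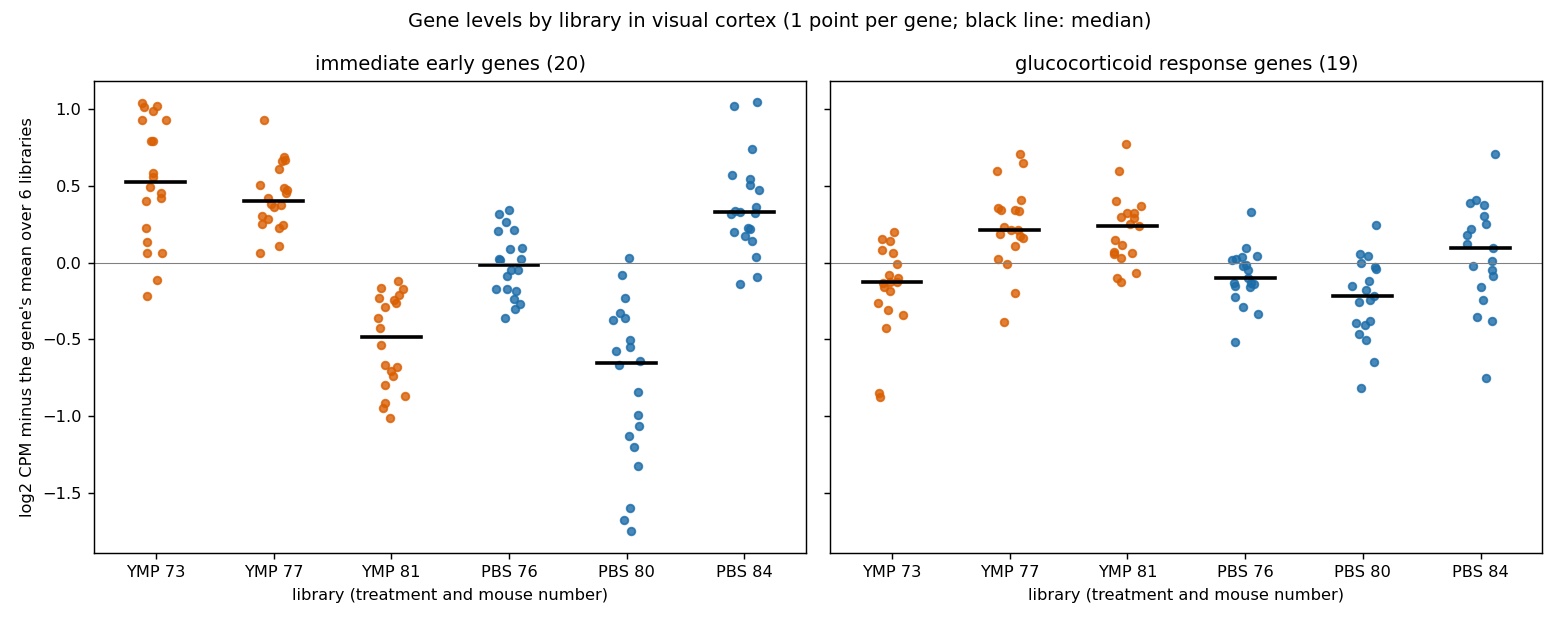
Log2 CPM of each gene minus its mean over the 6 libraries, for 20 immediate early genes (left) and 19 glucocorticoid response genes (right), with 1 point per gene and the median as a black line (orange YMP, blue PBS). The immediate early genes are lowest in YMP mouse 81 and PBS mouse 80. The glucocorticoid genes are highest by median in YMP mice 77 and 81, while YMP mouse 73 lies among the PBS mice.

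Lists of neuronal and housekeeping function had medians near that of all genes. The median log2 difference was 0.00 for 20 glutamate receptor and scaffold genes, -0.01 for 20 genes of transmitter release, 0.02 for 20 nuclear-encoded subunits of the respiratory chain and 0.01 for 22 cytosolic ribosomal proteins. In all 4 lists the groups overlapped in every gene. The ribosomal list had 15 of 22 genes higher with all mice, 5 of 22 without PBS mouse 76 and 7 of 22 without YMP mouse 73, so that it has no stable direction. Without PBS mouse 76, 1 gene of transmitter release and 1 of the respiratory chain were higher without overlap (7.89% of all genes). Camk2a, the kinase of the postsynaptic density, was at 2846, 2741 and 2663 CPM in YMP and at 2870, 2978 and 2627 CPM in PBS mice (log2 difference -0.04, SE 0.09). Snap25, a protein of vesicle fusion, differed by 0.08 (SE 0.10), Atp5b, a subunit of ATP synthase, by 0.06 (SE 0.09), and Rpl3, a ribosomal protein, by -0.06 (SE 0.09). Cox8a and Rps2, with the smallest p of the respiratory and ribosomal lists, differed by 0.07 (SE 0.10) and -0.16 (SE 0.15). Grin2a, an NMDA receptor subunit, had the smallest p of its list, with a difference of 0.18 (SE 0.09). Syp, a protein of synaptic vesicles, spread over 153 to 404 CPM across the 6 libraries (0.45, SE 0.27).

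Genes of visual plasticity were described from 2 lists. Of 19 tested genes tied to visual activity and the critical period, 11 were higher and 8 lower, with a median of 0.03 (0.06 without PBS mouse 76 and 0.08 without YMP mouse 73). Igfbp5, a binding protein of insulin-like growth factors, was at 43.5, 55.9 and 59.7 CPM in YMP and at 66.0, 63.7 and 65.2 CPM in PBS mice, without overlap (log2 difference -0.29, SE 0.12). Plat, tissue plasminogen activator, was at 48.2, 47.2 and 60.1 CPM against 42.5, 43.8 and 45.8 CPM (0.24, SE 0.11). Lynx1, which restrains nicotinic receptors, overlapped between the groups (0.22, SE 0.14). In the list of restrictive matrix and perineuronal nets, 18 genes were tested, with a median of -0.03 and 2 lower without overlap (3.85% of all genes). The median without PBS mouse 76 was -0.06 and 4 were lower without overlap (8.48% of all genes). Without YMP mouse 73 the median was 0.01. Tnc, tenascin C, was at 2.59, 2.60 and 2.26 CPM in YMP and at 2.78, 5.97 and 4.16 CPM in PBS mice (log2 difference -0.82, SE 0.28), where PBS mouse 80 was the highest. Bcan, brevican, and Hapln1, the link protein of the nets, differed by -0.08 (SE 0.10) and -0.05 (SE 0.19), and Nptxr, the most abundant of the list, by -0.08 (SE 0.12).

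Proteins named in work on young blood, with their receptors and targets, made a list of 27 genes, of which 23 were tested. In YMP mice 8 were higher and 15 lower, with a median of -0.10 (-0.04 without YMP mouse 73). Gdf11, a ligand of the TGF-beta family, was at 8.01, 7.40 and 8.07 CPM in YMP and at 8.19, 8.36 and 9.36 CPM in PBS mice (log2 difference -0.15, SE 0.15). Tgfbr2, a receptor for TGF-beta, was at 20.8, 22.02 and 19.7 CPM against 29.8, 25.1 and 22.6 CPM (-0.30, SE 0.13), and Id3, a target of BMP signals, at 60.6, 33.6 and 48.2 CPM against 63.8, 62.1 and 63.2 CPM (-0.41, SE 0.17). The groups were apart in these 3 genes. Over the whole list they were apart in 4 lower genes and 1 higher gene, against 3.85% and 3.71% of all genes. Tet2, which oxidises methylated cytosine, was at 40.9, 47.2 and 45.1 CPM against 39.7, 40.9 and 28.1 CPM (0.30, SE 0.14). The ligand or receptor genes Mstn, Ccl11, Ccr3 and Cxcr3 had at most 2 counts in any library and were not tested. Timp2, a matrix protein, Clu, clusterin, and B2m, the light chain of MHC class I, overlapped between the groups, with log2 differences of 0.01 (SE 0.09), -0.10 (SE 0.09) and -0.03 (SE 0.09). Sparcl1, a synapse-promoting protein and the most abundant of the list, differed by -0.15 (SE 0.10).

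Metabolic and growth pathways had medians close to that of all genes. In the list of insulin, IGF and mTOR signalling, 10 of 22 genes were higher (11 without PBS mouse 76) and the median was -0.00. The groups were apart in 2 higher and 2 lower genes (9.09% each), against 3.71% and 3.85% of all genes. An unadjusted edgeR p under 0.05 was reached by 2 higher and 2 lower genes, against 1.28% and 1.5% of all genes. Irs2, the insulin receptor substrate, was at 70.9, 84.0 and 58.6 CPM in YMP and at 57.2, 55.7 and 48.7 CPM in PBS mice, without overlap (log2 difference 0.40, SE 0.13), while Rheb, the activator of mTOR, overlapped (0.06, SE 0.10). Cyp51, an enzyme of cholesterol synthesis, differed by 0.26 (SE 0.11), while Hmgcs1, the most abundant gene of that list, was level between the groups at 391 CPM each (-0.00, SE 0.10). Among growth factor receptors, Fgfr1 differed by -0.22 (SE 0.11) and Ntrk2, the BDNF receptor, by -0.02 (SE 0.09).

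Among astrocyte markers, 2 of 14 genes were lower without overlap, against 3.85% of all genes. Gfap, the filament protein that marks reactive astrocytes, was at 136, 125 and 145 CPM in YMP and at 165, 201 and 157 CPM in PBS mice (log2 difference -0.37, SE 0.11). Aqp4, the water channel of astrocyte endfeet on vessels, was at 70.1, 63.0 and 72.3 CPM against 78.0, 79.0 and 93.5 CPM (-0.29, SE 0.10). Both were without overlap, whereas the glutamate transporters Slc1a2 and Slc1a3 overlapped (-0.04, SE 0.09, and -0.07, SE 0.10), and the median of the 14 astrocyte genes was -0.05 (-0.08 without PBS mouse 76 and -0.12 without YMP mouse 73). Of 14 microglial genes 12 had a lower mean in YMP mice, with a median of -0.10. With all mice 2 were lower without overlap (3.85% of all genes), and without YMP mouse 73 there were 8 (9.15% of all genes). P2ry13, a purine receptor, had the lowest value (-0.37, SE 0.23), with overlap. Tmem119, a microglial surface protein, was at 32.3, 32.9 and 34.8 CPM in YMP and at 38.6, 38.4 and 35.0 CPM in PBS mice (-0.16, SE 0.10). The 13 tested genes of mature oligodendrocytes had a median of 0.07 and overlapped throughout with all mice. Their median without PBS mouse 76 was 0.25. In that fit 4 were higher with an unadjusted p under 0.05 (1.53% of all genes) and 3 were higher without overlap (7.89% of all genes). The 12 genes of oligodendrocyte precursors had a median of -0.02 (0.05 without PBS mouse 76) and a wide spread. The ligand Bmp4 was at -0.62 (SE 0.24) and the transcription factor Olig2 at 0.45 (SE 0.19), both with overlap, while Enpp6, at -0.54 (SE 0.25), and Neu4, at 0.41 (SE 0.21), were without overlap.

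Immune genes leaned lower. In the list of complement, MHC class I and microglial activation, 14 of 19 tested genes had a lower mean, with a median of -0.05 (12 of 19 and -0.04 without PBS mouse 76). Apoe, the lipid carrier and most abundant member, overlapped (-0.17, SE 0.12). Cd9, a tetraspanin of activated microglia and other cells, was at 53.7, 50.7 and 51.1 CPM in YMP and at 73.2, 59.7 and 57.6 CPM in PBS mice (log2 difference -0.29, SE 0.11). C4b, a complement gene that increases with age in the brain, was at 12.2, 15.7 and 15.5 CPM against 17.6, 17.1 and 15.7 CPM, apart by a narrow margin (-0.20, SE 0.14). Of 19 interferon-response genes, 13 had a lower mean and the median was -0.15 (12 and -0.13 without PBS mouse 76). Usp18, an interferon-induced inhibitor of that response, was at 1.23, 0.962 and 1.13 CPM against 2.16, 2.03 and 1.42 CPM (-0.72, SE 0.31). Ifi27, the most abundant member, differed by 0.16 (SE 0.11).

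Of 14 tested interneuron markers, 11 had a lower mean in YMP mice. The groups were apart in 2 of them, both lower, against 3.85% of all genes. Calb2, calretinin, was at 16.0, 12.7 and 15.9 CPM in YMP and at 21.5, 19.95 and 19.95 CPM in PBS mice (log2 difference -0.46, SE 0.13). Vip, expressed in part of the same interneurons, overlapped (-0.19, SE 0.15), and the median of the 14 tested interneuron genes was -0.08. Calb2 is also in the list of thalamic markers, of which 9 of 10 tested genes had a lower mean in YMP mice, and 6 of 10 without PBS mouse 76. With all mice 2 of the 10 thalamic genes were lower without overlap (3.85% of all genes).

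Genes of blood cells followed single libraries. Of 12 genes 8 were tested, all 8 with a higher mean in YMP mice, and the summed level of the list was 26.1 to 113 CPM in YMP and 19.5 to 66.1 CPM in PBS mice. The haemoglobin gene Hba-a1 was at 28.7, 4.04 and 9.52 CPM in YMP and at 3.40, 4.66 and 23.9 CPM in PBS mice, so that YMP mouse 73 and PBS mouse 84 held most haemoglobin RNA. Reads of Hba-a1 and its near-identical copy Hba-a2 may be shared between both genes. S100a8, a calcium-binding protein of neutrophils, was at 18.8, 4.42 and 5.08 CPM in YMP and at 2.63, 2.27 and 3.69 CPM in PBS mice (log2 difference 1.63, SE 0.53), and its partner S100a9 at 8.62, 3.17 and 2.02 CPM against 1.55, 0.717 and 1.51 CPM (1.79, SE 0.55). Both were without overlap, the only 2 of the 8 genes (3.71% of all genes), and both were highest in mouse 73. Without this mouse, 4 of the 8 genes were higher, 2 of them without overlap (8.55% of all genes). The differences of S100a8 and S100a9 were then 0.70 and 1.02. Without PBS mouse 76, 6 of the 8 were higher, 3 of them without overlap (7.89% of all genes).

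**Figure D4:**
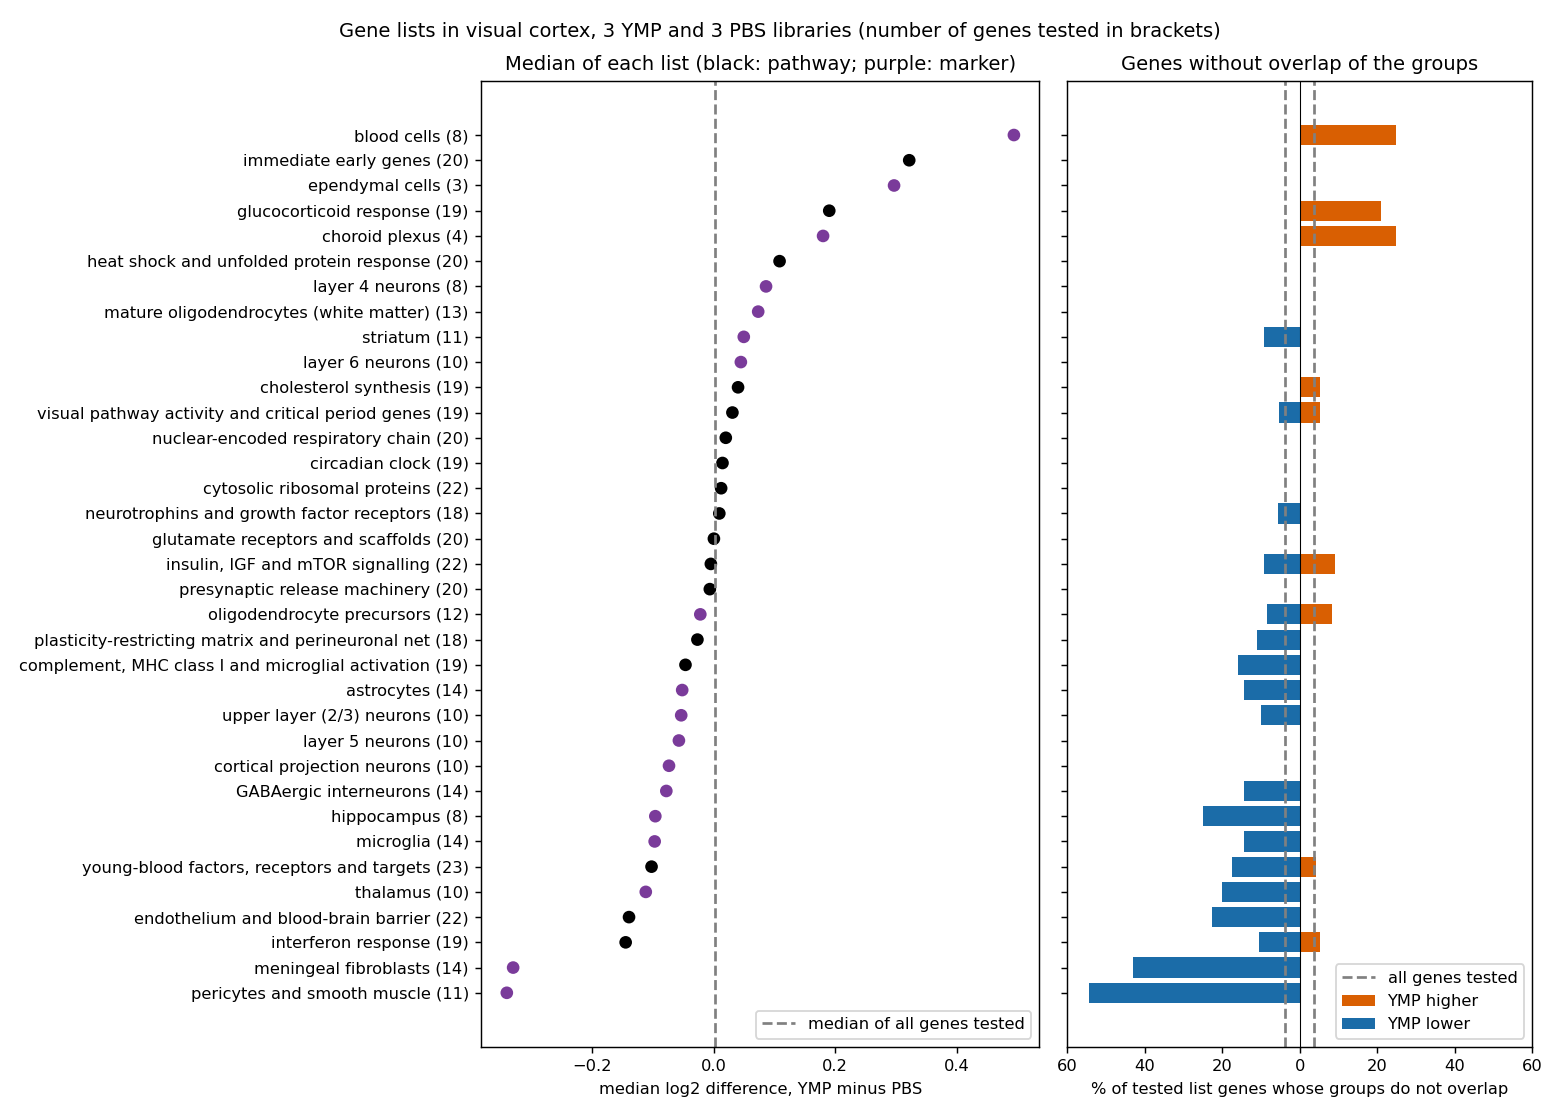
Left: median log2 difference, YMP minus PBS, of 17 pathway lists (black) and 18 marker lists (purple), with the median of all genes tested as a dashed line. Right: the percentage of tested list genes whose groups do not overlap, higher in YMP to the right and lower to the left, with dashed lines at 3.71% and 3.85% for all genes. Pericytes and smooth muscle (54.5%) and meningeal fibroblasts (42.9%) reach farthest to the left.

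The YMP difference in visual cortex was next set against that in other regions of the same mice. Against motor cortex (3 YMP and 4 PBS libraries), the difference between the 2 regional effects was tested in 13708 genes. edgeR called 0, DESeq2 and limma voom called 0, and 167 genes (1.22%) had an unadjusted p under 0.05. The smallest p belonged to Tacr3, a neurokinin receptor, with a difference of 3.22 (SE 0.87). Its counts in motor cortex were 0, 0 and 2 in YMP mice 73, 77 and 81 and 13, 7, 12 and 4 in PBS mice 72, 76, 80 and 84, so that the value rests on few counts, while in visual cortex Tacr3 overlapped between the groups (log2 difference 0.03, SE 0.35). Rian followed with 0.42 (SE 0.12) and Meis2, a homeodomain factor, with -0.42 (SE 0.12).

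Mouse terms were then added to this fit, since each mouse number marks the same animal in both regions. With this pairing edgeR called 2 genes (0.0146%), and 998 (7.28%) had an unadjusted p under 0.05. With CPM scaled over both regions, Lmo3, a transcriptional cofactor of neurons, was at 24.5, 38.2 and 38.0 CPM in visual cortex of YMP mice 73, 77 and 81 and at 18.3, 19.2 and 27.9 CPM in PBS mice 76, 80 and 84. In motor cortex the same mice had 52.3, 61.1 and 73.1 CPM with YMP and 59.9, 65.7 and 105 CPM with PBS, and PBS mouse 72 had 20.2 CPM. Among the mice with both regions, the YMP effect was thus more positive in visual cortex by 0.93 on the log2 scale (SE 0.13, edgeR adjusted p 0.0287 with mouse terms). Lrp3, a member of the lipoprotein receptor family, was at 88.6, 74.2 and 34.9 CPM in visual cortex of YMP mice and at 86.8, 79.4 and 62.7 CPM in PBS mice. In motor cortex it was at 61.2, 61.9 and 32.0 CPM against 34.3, 36.7 and 29.6 CPM in PBS mice 76, 80 and 84 and 90.2 CPM in PBS mouse 72 (difference -0.88, SE 0.13, edgeR adjusted p 0.0287 with mouse terms). Without mouse terms the differences were 0.58 (SE 0.54) for Lmo3 and -0.26 (SE 0.55) for Lrp3, with an edgeR adjusted p of 0.99994 for both. PBS mouse 72 enters the motor cortex mean of that fit, whereas with mouse terms its library has no visual cortex partner. With mouse terms and without mouse 72 the differences were again 0.93 and -0.88. With mouse terms, neither gene passed the adjusted threshold without YMP mouse 77, without YMP mouse 81 or without PBS mouse 84, where 0 genes were called.

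Against entorhinal cortex (3 YMP and 4 PBS libraries), 13930 genes were tested. The PBS group included mouse 72, whose layer 4 list averaged 3.95, against 2.01, 2.42 and 2.23 in PBS mice 76, 80 and 84. edgeR called 0 genes with and without mouse terms, and 282 (2.02%) had an unadjusted p under 0.05 without them and 384 (2.76%) with them. Myh11 was among the 3 genes with the smallest p: its YMP effect was lower in visual than in entorhinal cortex on the log2 scale, with a difference of -1.53 (SE 0.37, edgeR adjusted p 0.99996). In entorhinal cortex Myh11 was at 2.57, 4.49 and 4.27 CPM in YMP mice 73, 77 and 81 and at 3.87, 3.23, 2.70 and 3.68 CPM in PBS mice 72, 76, 80 and 84, with overlapping groups. Zfp202, a zinc finger gene, and Dock6 had differences of -1.34 (SE 0.31) and -0.95 (SE 0.23).

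The contractile genes had no shared direction over the brain. In the other 14 regions the log2 difference of Myh11 was above 0 in 7 and below 0 in 7, from -0.76 in anterior hippocampus to 0.69 in SVZ, and that of Acta2 likewise in 7 and 7, from -0.89 in motor cortex to 0.96 in posterior hippocampus. The motor cortex value of Acta2 came from 1 library: PBS mouse 72 had 29.7 CPM, and the other PBS mice 5.46, 5.48 and 6.11 CPM, against 3.65, 7.14 and 7.42 CPM in YMP mice. The meningeal fibroblast list had a median below 0 in 11 of 14 other regions, from -1.24 in SVZ to 1.35 in posterior hippocampus.

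The glucocorticoid list had a shared direction by its median, though not in every member. The median log2 difference of this list was above 0 in all 15 regions, from 0.03 in entorhinal cortex to 0.33 in corpus callosum, and that of the heat shock list in 13 of 15. Other lists were about as uneven as the latter. The young-blood list had a median below 0 in 13 of 15 regions, and the immediate early genes above 0 in 12 of 15. Sgk1 was higher by mean in each of the 14 other regions, by 0.45 to 1.60 on the log2 scale, and Ddit4 by 0.17 to 0.997. Klf9 was higher in 13 of 14. Other members went the other way more often: Nr3c1 was lower in 10 of 14, Nr3c2 in 11 and Mt2 in 9. In none of the other regions did Sgk1, Ddit4 or Klf9 reach an adjusted p under 0.05 in edgeR, and the lowest were 0.0637, 0.148 and 0.479. The regions come from the same 7 mice, so that these are repeated looks at few animals and not independent replicates.

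**Figure D5:**
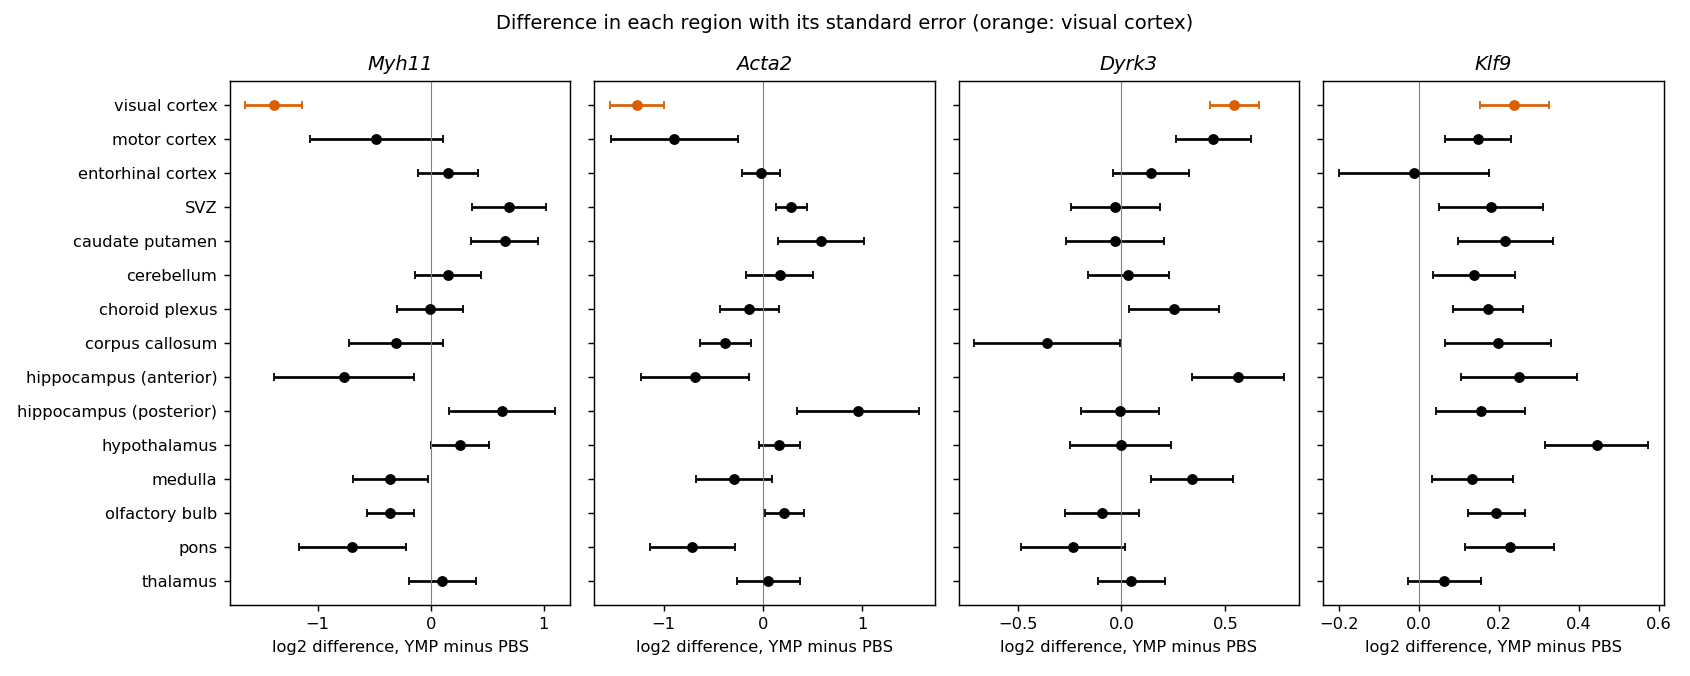
Log2 difference, YMP minus PBS, with its standard error for Myh11, Acta2, Dyrk3 and Klf9 in 15 regions (orange visual cortex, black the others). Myh11 is at -1.39 in visual cortex and between -0.76 and 0.69 elsewhere. Klf9 is above 0 in 14 of 15 regions, and only entorhinal cortex has a value below 0 (-0.01).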

How the data were processed

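Bulk RNA sequencing was measured in visual cortex of 3 YMP and 3 PBS mice. The deposited values are whole-number counts per gene that the authors made, in a table of 21076 rows. Per the labels' protocols, RNA was isolated on columns, amplified as full-length cDNA by Smart-Seq2 and tagmented without strand information, so genes that overlap another gene or have near-identical copies are uncertain. The submitters' processing notes name Trim Galore 0.3.7, STAR 2.5.3a, DESeq2 and GRCm38, with no role for each. Counts carry no molecular identifiers.

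Counts were tested in R 4.3.3 with edgeR 4.0.16 (quasi-likelihood) after filterByExpr (minimum count 10, minimum total 15) and TMM scaling, without covariates, and p-values were adjusted over all genes tested. CPM use TMM-scaled library sizes, and log2 CPM a prior count of 2. DESeq2 1.42.0 and limma 3.58.1 served as alternatives. The script was tested on simulated data. Nothing says that mice came from separate litters or cages, and p-values measure the spread between these mice. Duplicates were checked: pairs of the same group differed by a chi-square of at least 5.28 per degree of freedom.

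Genes were named by rule: up to 12 in each direction, called genes first and otherwise those with the smallest p, a mean of at least 1 CPM and no overlap between groups; of each pathway list the member with the smallest p and that with the highest CPM; the 3 smallest p of each difference between regions; Xist and Ddx3y; and marker genes. The 35 lists held 539 genes, 492 of them tested, and 1 (Ddit3) had no row. The members and lists were chosen with earlier results of these data known. Other list members named in the text were chosen after their values were seen.

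Mouse numbers mark the same animal across regions. Deviations from the group mean correlated by 0.19 on average between visual and motor cortex of the same mouse (lowest 0.082) and by -0.08 between different mice, and by 0.10 and -0.04 for entorhinal cortex. Positions and promoters are from RefSeq (GRCm38.p6), and figures were drawn with matplotlib.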

Additional observations from a re-analysis of the deposited data

Results flagged for a closer look

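The difference between the YMP effects in visual and motor cortex passed the adjusted threshold for 2 genes when mouse terms were in the fit, with values of 0.93 for Lmo3 and -0.88 for Lrp3 on the log2 scale. Both tests include the interaction of region and treatment, and both calls were lost without YMP mouse 77, YMP mouse 81 or PBS mouse 84.

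In groups of at least 4 libraries, 3 of 26 sets of values had a library far from the others by Dixon's criterion. Groups of 3 libraries, among them visual cortex PBS with mouse 76, were too small for it and were not tested. PBS mouse 72 in motor cortex was at 29.7 CPM for Acta2 and at 90.2 CPM for Lrp3, both above the other 3 PBS mice, and this mouse has no visual cortex library here. It enters the PBS mean of both regional comparisons only in the fits without mouse terms. With mouse terms its library has no visual cortex partner, and without it Lmo3 and Lrp3 stayed at 0.93 and -0.88. The libraries of mouse 72 also stood apart in some layer markers. In motor cortex its Tshz2 was at 125 CPM, against 31.3, 45.6 and 16.6 CPM in PBS mice 76, 80 and 84. In entorhinal cortex its Rspo1 was at 10.8 CPM, against 0, 1.29 and 0.588 CPM in these mice. Its motor cortex Cux2, at 54.8 CPM, was inside their range. PBS mouse 76 in entorhinal cortex was at 2.51 CPM for Zfp202, below the other 3. About 1 in 20 groups is marked by chance if values are chosen without regard to the data. The genes among these sets were chosen from the same data, so that rate need not hold for them.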

How the results depend on the processing

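In visual cortex edgeR called 0 genes with RLE factors, library totals only, no filter, a mean of at least 5 CPM, the spread of all plasma groups, and each mouse left out in turn (range 0 to 0). DESeq2 and limma voom also called 0, and the smallest adjusted p of DESeq2 was 0.0721 (Acta2). The number with an unadjusted p under 0.05 ran from 194 (DESeq2) to 523 (without PBS mouse 76). The difference from motor cortex had 0 calls under the alternatives run (range 0 to 0 with mice left out), except with the replicate block, the mouse terms, where 2 genes were called. With the block and mice left out in turn the count ran from 0 to 20. The difference from entorhinal cortex had 0 calls throughout (range 0 to 0), with the block included. No pairing joins YMP with PBS mice within visual cortex. The fits with the block and a mouse left out, and the list counts without PBS mouse 76 or YMP mouse 73, were chosen after seeing the data.

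Of 1532 values of 119 genes named or considered, 1480 kept their direction, 52 changed sign, 0 passed the adjusted threshold, and 94 genes never changed sign. Of 455 list medians, 432 stayed within the spread between replicates and 23 did not. With 1 mouse left out in turn, the log2 difference changed sign in some settings and ran from -0.089 to 0.0011 for Camk2a, -0.019 to 0.18 for Hspa8, -0.0021 to 0.10 for Atp5b, -0.29 to 0.054 for Rps2, -0.10 to 0.00011 for Rpl3, -0.10 to 0.021 for Tef, -0.092 to 0.078 for Hmgcs1, -0.032 to 0.10 for Rheb and -0.085 to 0.059 for Ntrk2. The same held for ranges of -0.20 to 0.013 for Nptxr, -0.12 to 0.14 for Rgs5, -0.091 to 0.18 for Kcnj8, -0.95 to 0.030 for Npas4, -1.88 to 0.10 for Tshz2, -0.12 to 0.54 for Rorb, -0.16 to 0.077 for Abcb1a, -0.21 to 0.073 for Foxc1 and -0.23 to 0.056 for Hapln1. The last such ranges were -0.060 to 0.062 for Timp2, -0.075 to 0.045 for B2m, -0.10 to 0.014 for Slc1a2, -0.14 to 0.013 for Slc1a3, -0.72 to 1.73 for Hba-a1, -0.17 to 0.053 for Nr3c2 and -0.18 to 0.10 for Mt1. It also changed sign with limma voom with library quality weights: 0.0074 for Hmgcs1, -0.014 for Rgs5, -0.0082 for Timp2, 0.019 for B2m, 0.043 for Mt1. With the spread from all plasma groups it was 0.00231 for Hmgcs1. With library totals only it was -0.0025 for Timp2. With a mean of at least 5 CPM it was -0.0019 for Timp2. The cause was not tested. Genes under about 5 CPM, such as Myh11, rest on few counts, and 3 mice a group limit every value.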
